A study of Mus musculus with 6 samples.

Results

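The structural proteins of the myelin sheath were followed through 10 genes, *Mbp*, *Mobp*, *Mag*, *Mal*, *Cnp*, *Cldn11*, *Tspan2*, *Ermn*, *Plekhb1* and *Pllp*, among 19505 genes with a symbol on the array. They were listed by their known place in myelin, at a time when earlier results of these data were known, and matched by symbol. Each lay on 1 transcript cluster, the set of probes that stands for a gene. Hippocampal total RNA from mouse pups on postnatal day 10 was hybridized to 1-colour Clariom S arrays, in 2 groups of 3. Pups nursed by WT dams are called *LAO1* KO with WT milk, and those nursed by *LAO1* KO dams *LAO1* KO with KO milk. All 6 pups carried the *LAO1* KO genotype on a C57BL/6Jcl background, so neither group had WT pups, and the groups differed in the nursing dam, which was WT or *LAO1* KO. Litters were exchanged between dams after birth, and the sources used here do not say which litter or sire each pup came from. LAO1 is an oxidase of L-amino acids that is present in mouse milk and releases hydrogen peroxide, and the comparison asked whether its absence from the milk goes with a difference in the infant hippocampus.

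Myelin is the membrane that oligodendrocytes wrap around axons. Basic proteins hold its cytoplasmic faces together, membrane-spanning proteins sort its lipids and seal its edges, and adhesion receptors fasten the innermost wrap to the axon. In the mouse hippocampus this membrane is laid down during the first weeks after birth, so postnatal day 10 falls in its early phase. In bulk tissue, fewer oligodendrocytes and less myelin RNA per oligodendrocyte cannot be told apart.

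Oligodendrocyte genes are read through short elements near their starts, among them the core bound by SOX factors such as SOX10 and the motif of MYRF, the regulator of myelination. The RefSeq promoter table (GRCm38.p6) held a window for 9 of the 10 genes, all but *Mbp*, and the 250 bases before the most upstream start were searched on both strands. The window of *Mobp* is shown for its repeated SOX cores, those of *Mag* and *Cnp* because each held a SOX core and a MYRF motif, and those of *Cldn11* and *Tspan2* because these genes differed most between the milk groups. Each sequence runs 5′ to 3′ on the strand of the gene and ends at the last base before the start, and capitals mark ACAAAG (the SOX core, CTTTGT on the other strand) or CTGGCAC (the MYRF motif).
*Mobp*, chr9:120149492-120149741, plus strand: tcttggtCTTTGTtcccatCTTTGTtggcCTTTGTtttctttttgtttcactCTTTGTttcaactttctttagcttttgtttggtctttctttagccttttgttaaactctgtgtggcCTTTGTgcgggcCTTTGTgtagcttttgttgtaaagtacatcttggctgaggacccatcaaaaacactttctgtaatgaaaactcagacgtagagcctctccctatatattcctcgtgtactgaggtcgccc
*Mag*, chr7:30914923-30915172, minus strand: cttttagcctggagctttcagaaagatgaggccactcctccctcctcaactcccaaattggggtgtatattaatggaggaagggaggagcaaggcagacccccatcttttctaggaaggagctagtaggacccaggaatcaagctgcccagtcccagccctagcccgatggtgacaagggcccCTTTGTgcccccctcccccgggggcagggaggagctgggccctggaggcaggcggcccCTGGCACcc
*Cnp*, chr11:100574689-100574938, plus strand: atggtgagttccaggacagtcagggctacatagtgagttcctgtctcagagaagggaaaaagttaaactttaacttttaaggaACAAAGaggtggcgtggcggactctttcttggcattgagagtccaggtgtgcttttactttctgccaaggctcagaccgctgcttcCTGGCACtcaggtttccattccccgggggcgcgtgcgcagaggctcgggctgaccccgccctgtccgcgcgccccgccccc
*Cldn11*, chr3:31149670-31149919, plus strand: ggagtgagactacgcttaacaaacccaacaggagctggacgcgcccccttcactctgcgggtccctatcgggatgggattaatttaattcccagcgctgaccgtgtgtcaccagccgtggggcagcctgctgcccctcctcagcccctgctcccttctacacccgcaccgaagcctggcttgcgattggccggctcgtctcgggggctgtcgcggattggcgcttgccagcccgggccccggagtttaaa
*Tspan2*, chr3:102734520-102734769, plus strand: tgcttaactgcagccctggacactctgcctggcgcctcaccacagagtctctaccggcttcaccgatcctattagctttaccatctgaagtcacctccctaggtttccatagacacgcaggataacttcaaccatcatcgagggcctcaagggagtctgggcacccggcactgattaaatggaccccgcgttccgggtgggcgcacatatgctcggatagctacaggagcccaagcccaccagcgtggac

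The SOX core ACAAAG was present in 3 of the 9 windows, *Mobp* with 6 copies and *Mag* and *Cnp* with 1 each, and in 14.9% of 15691 promoter windows of array genes. The MYRF motif CTGGCAC was present in 2 of the 9, ending 3 bases before the start of *Mag* and 75 bases before that of *Cnp*, and in 4.16% of all windows. A second SOX core, ACAATG, was present in 1 window, that of *Ermn*, against 8.82% of all. The E-box CAGCTG and the TATA box TATAAA were present in 0 of the 9, against 11.9% and 12.2% of all. *Cldn11* and *Tspan2*, which differed most between the groups, had none of these letters, as did *Mal*, *Plekhb1* and *Pllp*. A match is a run of letters only, and its use in these pups was not tested.

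Signal was deposited as log2 intensity for each cluster, so a difference of 1 is a doubling of signal. Medians of the 6 arrays lay between 6.89 and 6.92, and all 10 genes had means above them. Of all 22206 clusters 11082 had a mean above the array median, and of 12 thalamus genes 7 did. So did 11 of 11 measured genes of the hippocampal fields, *Neurod6* the brightest, which does not show tissue free of its neighbours. Of these 11, *Prox1*, a transcription factor of dentate granule cells, was higher with KO milk by 0.54 on the log2 scale (unadjusted p = 0.015 from limma, standard error 0.19), and its groups did not overlap. By the same rules 1.61% of all clusters were higher and 4.26% lay higher without overlap. The labels name every pup male, but the 3 measured Y chromosome genes (*Uty*, *Kdm5d* and *Eif2s3y*) had a mean log2 intensity of 9.97 to 10.4 in WT milk replicates 1 and 3 and KO milk replicate 2 and of 3.26 to 3.56 in the other 3 arrays. KO milk replicate 3 stood apart, with a root mean square distance of 0.479 to 0.537 to the other arrays against 0.32 to 0.407 among them. With limma, 0 of 22206 clusters passed an adjusted p of 0.05 (0% of clusters), with 369 lower and 357 higher with KO milk at an unadjusted p under 0.05. An unmoderated test also gave 0 after adjustment, so every call below is at an unadjusted p under 0.05 from limma.

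All 10 genes had a lower mean with KO milk than with WT milk, and 8 of them passed at an unadjusted p under 0.05, where 1.66% of all clusters were lower by the same rule. The median log2 difference, KO milk minus WT milk, was -0.82 over the 10 genes and 0.0043 over all clusters. *Mag* and *Pllp* did not pass. For 8 of the 10, all but *Mag* and *Ermn*, every KO milk array lay below every WT milk array, which was the case for 4.17% of all clusters. None passed after adjustment over all clusters (adjusted p = 0.9996 from limma for each of the 10), and with 3 arrays against 3 an exact permutation test of 1 gene cannot give a two-sided p below 0.1, the value reached by the 8 genes without overlap. The p-values measure the spread between these 6 samples only.

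**Figure D1:**
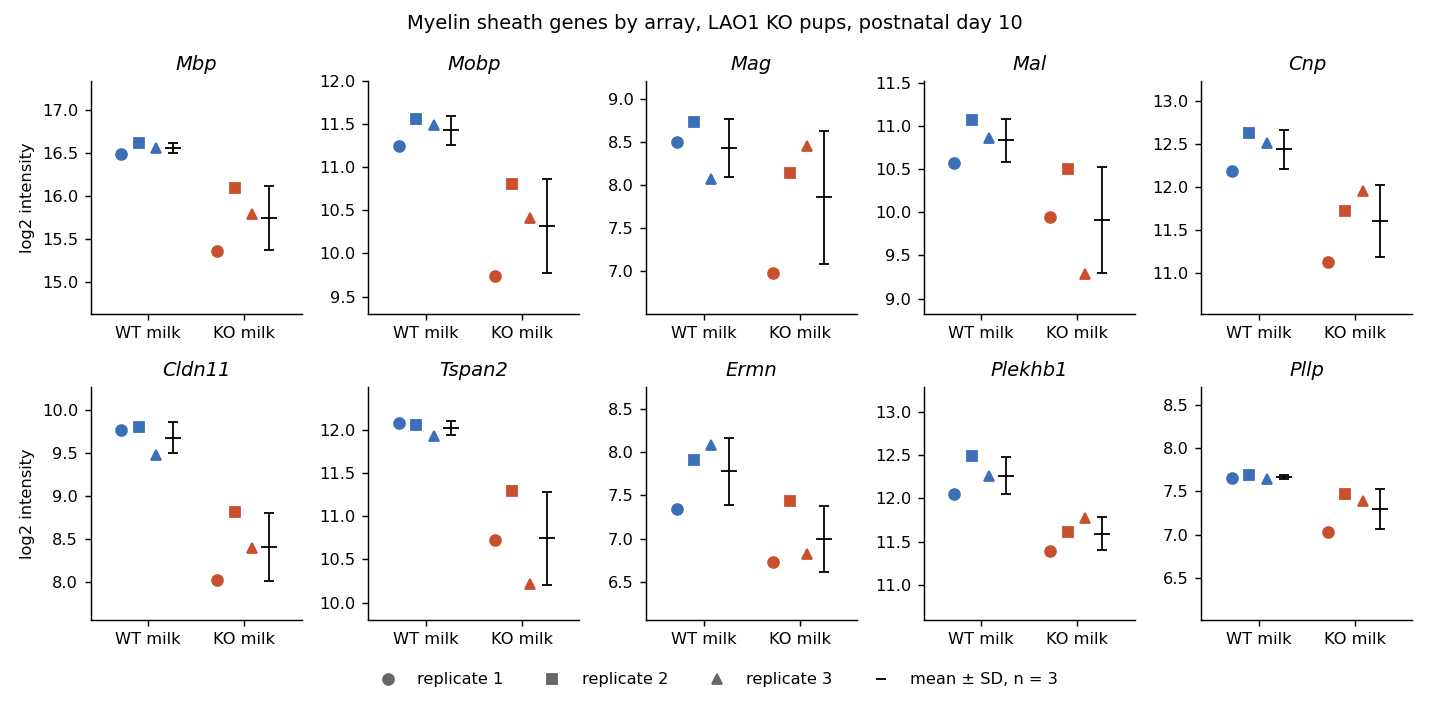
Log2 intensity of the 10 myelin sheath genes in each array, WT milk in blue and KO milk in red, with the mean and SD of 3 arrays in black. Marker shapes give the replicate, every panel spans the same number of log2 units, and the groups overlap in *Mag* and *Ermn* only.

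The basic proteins of compact myelin were both lower with KO milk. *Mbp* encodes myelin basic protein, which glues the cytoplasmic faces of the sheath to each other. Its log2 intensity was 16.49, 16.61 and 16.56 in WT milk replicates 1, 2 and 3 and 15.36, 16.10 and 15.79 in KO milk replicates 1, 2 and 3. The WT milk arrays lay within 0.12 of each other, whereas the KO milk arrays spread over 0.74 and all lay lower, with a gap of 0.39 between the groups. The log2 difference was -0.80 (standard error 0.21, unadjusted p = 0.0028 from limma), or a 1.75-fold higher signal with WT milk (95% interval 1.27 to 2.40). *Mobp*, a small basic protein that is deposited in the same compact layers, had log2 intensities of 11.24, 11.56 and 11.49 in the WT milk group and 9.74, 10.81 and 10.41 in the KO milk group. The order of the KO milk arrays was that of *Mbp*, replicate 1 lowest and replicate 2 highest. The log2 difference of *Mobp* was -1.11 (standard error 0.26, unadjusted p = 0.0013 from limma), a 2.16-fold higher signal with WT milk (95% interval 1.46 to 3.20).

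Of the 4 genes for proteins that cross the membrane repeatedly, 3 were lower, and they included the largest differences of the 10. *Cldn11* encodes the claudin of the tight junctions between myelin layers and had log2 intensities of 9.77, 9.79 and 9.47 in the WT milk group and 8.03, 8.82 and 8.39 in the KO milk group. The gap of 0.65 between the lowest WT milk and the highest KO milk array was the widest among the 10 genes. Its log2 difference was -1.26 (standard error 0.22, unadjusted p = 1.5e-04 from limma), 2.40-fold in favour of WT milk (95% interval 1.71 to 3.37), and its p was the smallest of all 22206 clusters before adjustment. *Tspan2*, a tetraspanin of oligodendrocytes, had log2 intensities of 12.08, 12.06 and 11.93 in the WT milk group and 10.72, 11.30 and 10.22 in the KO milk group. Here KO milk replicate 3 was the lowest array, not replicate 1. The log2 difference of *Tspan2* was -1.28 (standard error 0.25, unadjusted p = 3.7e-04 from limma), or 2.43-fold (95% interval 1.65 to 3.56).

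*Mal* encodes a protein of lipid-rich domains that takes part in sorting cargo to the myelin membrane, and it followed the pattern of *Tspan2*. It had log2 intensities of 10.58, 11.07 and 10.86 in the WT milk group and 9.95, 10.50 and 9.28 in the KO milk group, so KO milk replicate 2 lay only 0.076 below WT milk replicate 1. The log2 difference of *Mal* was -0.93 (standard error 0.28, unadjusted p = 0.0077 from limma), and without KO milk replicate 3 it was -0.61 (unadjusted p = 0.025). *Pllp*, plasmolipin, which is related to *Mal* in sequence and lies in similar domains, had log2 intensities of 7.65, 7.69 and 7.65 in the WT milk group and 7.03, 7.47 and 7.39 in the KO milk group. Its groups did not overlap, and its WT milk arrays agreed to 0.043, but its difference of -0.37 (standard error 0.18, 95% interval -0.77 to 0.03) was the smallest of the 10 and did not pass (unadjusted p = 0.070 from limma). Without KO milk replicate 1 the value for *Pllp* was -0.23.

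The 3 genes for cytoplasmic and cytoskeletal proteins were lower with KO milk. *Cnp* encodes the cyclic nucleotide phosphodiesterase of uncompacted myelin, where it keeps cytoplasmic channels from closing, and had log2 intensities of 12.19, 12.62 and 12.51 in the WT milk group and 11.13, 11.73 and 11.95 in the KO milk group. Its log2 difference was -0.84 (standard error 0.23, unadjusted p = 0.0045 from limma), or 1.78-fold (95% interval 1.25 to 2.55). *Plekhb1*, a membrane-bound protein with a pleckstrin homology domain, had log2 intensities of 12.05, 12.49 and 12.26 in the WT milk group and 11.39, 11.61 and 11.77 in the KO milk group. In both genes KO milk replicate 3 was the highest array of its group, the reverse of *Tspan2* and *Mal*. The log2 difference of *Plekhb1* was -0.67 (standard error 0.19, 95% interval -1.09 to -0.25, unadjusted p = 0.0048 from limma), and at 0.19 it had the smallest SD of the 10 between KO milk arrays.

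*Ermn* encodes ermin, an actin-binding protein of oligodendrocytes that is made late in their maturation. It had log2 intensities of 7.34, 7.91 and 8.09 in the WT milk group and 6.73, 7.43 and 6.82 in the KO milk group. KO milk replicate 2 lay 0.089 above WT milk replicate 1, so the groups overlapped. The log2 difference was -0.79 (standard error 0.25, unadjusted p = 0.0097 from limma) and the SD was 0.39 between WT milk and 0.38 between KO milk arrays.

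*Mag*, the adhesion receptor of the wrap that faces the axon, was the only one of the 10 with an array of the KO milk group above the WT milk mean. It had log2 intensities of 8.50, 8.73 and 8.07 in the WT milk group and 6.98, 8.14 and 8.44 in the KO milk group. KO milk replicate 1 stood 1.09 below the nearest other array, and the remaining KO milk arrays lay inside the range of the WT milk arrays. The log2 difference of *Mag* was -0.58 (standard error 0.34, 95% interval -1.32 to 0.17, unadjusted p = 0.116 from limma). Leaving out KO milk replicate 1 brought it to -0.14. Leaving out KO milk replicate 3 instead brought it to -0.87, and it then passed (unadjusted p = 0.028 from limma).

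**Figure D2:**
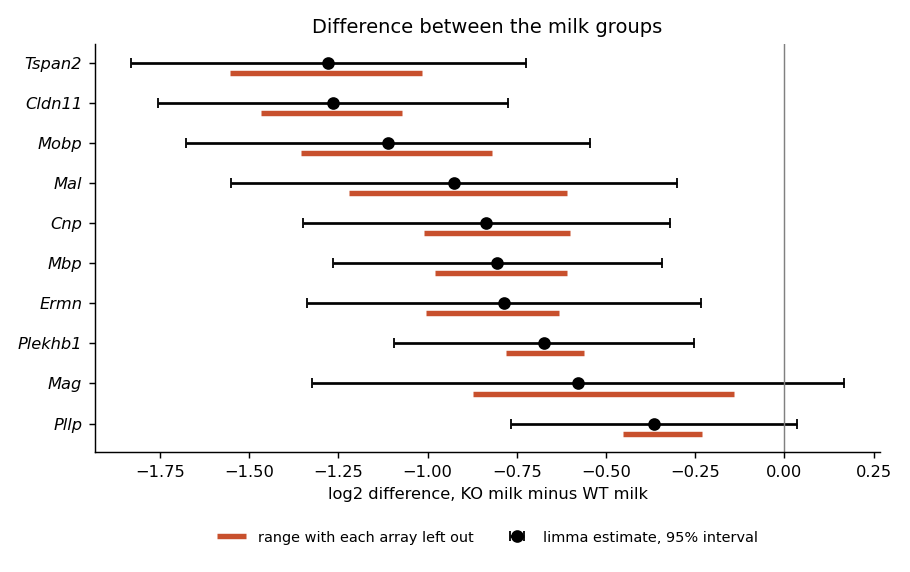
Log2 difference between KO milk and WT milk arrays for the 10 genes. Black points and bars are limma estimates with 95% intervals, and red bars span the estimates with each array left out in turn. The intervals of *Mag* and *Pllp* include 0, and no red bar reaches 0.

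The size of the difference depended on the KO milk array. Taken as deviations from the WT milk mean, the 10 genes had a median of -1.25 in KO milk replicate 1, -0.54 in replicate 2 and -0.86 in replicate 3, whereas the WT milk arrays had -0.12, 0.13 and -0.0021. KO milk replicate 1 was the lowest of the 6 arrays for 8 genes and replicate 3 for the other two, *Mal* and *Tspan2*. Replicate 2 was the highest KO milk array for 7 genes and replicate 3 for the other three, *Mag*, *Cnp* and *Plekhb1*. In KO milk replicate 3 the deviations ran from -1.81 for *Tspan2* to 0.01 for *Mag*, whereas in replicate 2 they ran from -0.86 for *Cldn11* to -0.19 for *Pllp*. WT milk replicate 2 was the highest array for 8 of the 10 genes. The SD was larger between KO milk than between WT milk arrays for 8 of the 10 genes, and for 58.2% of all clusters. The median SD of the 10 genes was 0.41 with KO milk and 0.20 with WT milk, against 0.24 and 0.20 over all clusters.

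**Figure D3:**
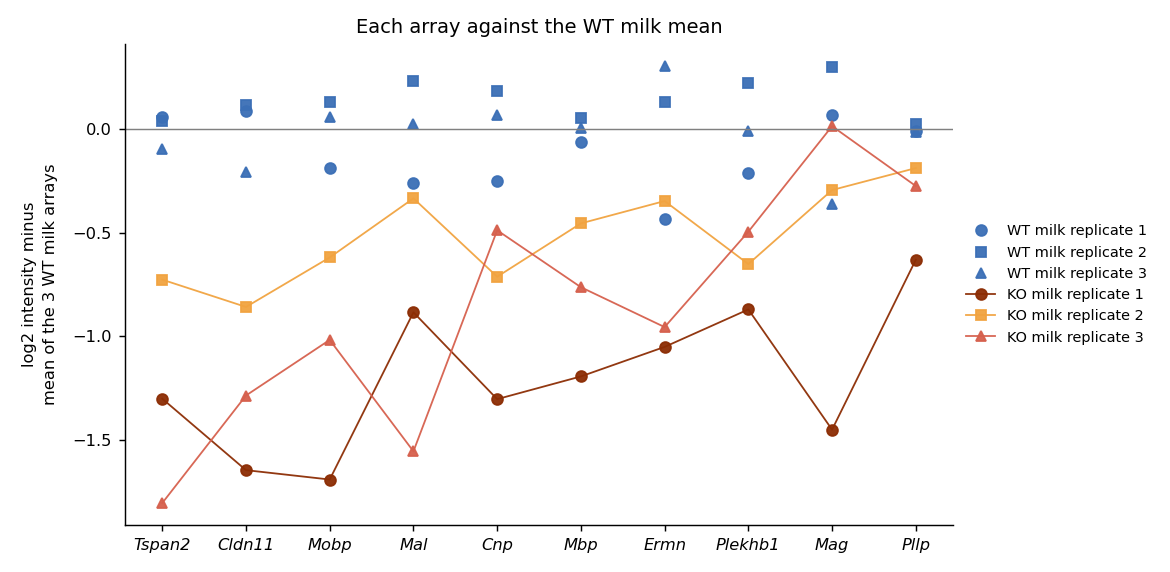
Log2 intensity of each gene minus its mean over the 3 WT milk arrays, ordered by the difference between the groups. Blue points are WT milk arrays and the lines join the genes of each KO milk array. The line of KO milk replicate 1 is lowest at 8 of the 10 genes, and that of replicate 3 crosses it at *Tspan2* and *Mal* and rises to 0.01 at *Mag*.

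Each gene was also set against the mean of the other 9 in the same array, and 0 of the 10 relative differences passed an exact permutation test, which cannot go below 0.1 with 3 arrays against 3. *Tspan2*, *Cldn11* and *Mobp* had the most negative relative differences, -0.46, -0.45 and -0.28 on the log2 scale, and *Pllp* the most positive, 0.55. The exact two-sided permutation p was 0.2 for *Tspan2* (adjusted p = 0.5 over 10 genes) and 0.1 for the other three (adjusted p = 0.333 for each). The relative values of single arrays are counted from the mean that the same gene had, relative to the other 9, in the WT milk arrays. On that scale *Mbp* stayed within 0.11 of 0 in every array. It had relative values of 0.0096, 0.071 and 0.11 in the KO milk arrays against -0.099 to 0.066 in the WT milk arrays. *Mag* ranged widest among the KO milk arrays, from -0.28 in KO milk replicate 1 to 0.97 in KO milk replicate 3.

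The Y chromosome signal was high in 2 WT milk arrays and 1 KO milk array, so it was not balanced between the milk groups. Per its methods, the study used neonates of both sexes. The difference between the milk groups was recomputed within each level of the Y signal. In the 3 arrays with high Y signal, KO milk replicate 2 lay below the mean of WT milk replicates 1 and 3 for all 10 genes, with a median of -0.48. In the 3 arrays with Y signal at the floor, the mean of KO milk replicates 1 and 3 lay below WT milk replicate 2 for all 10 genes, with a median of -1.11. These are comparisons of 1 array with 2, and the difference between the 2 levels was not tested. Both signs were fixed in advance for the 8 genes whose groups did not overlap, so only *Mag* and *Ermn* could have gone the other way. With Y signal as a covariate in limma, 8 of the 10 genes were lower and their median was -0.78.

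Markers of neighbouring tissue moved with some arrays. *Ttr*, the transthyretin of the choroid plexus and the brightest of 14 measured genes of that tissue, had log2 intensities of 17.74, 17.68 and 17.10 in the WT milk group and 10.76, 18.18 and 7.69 in the KO milk group. The summed signal of the 14 genes was 17.1 to 17.8 on the log2 scale for the WT milk group. KO milk replicates 1, 2 and 3 had 11.3, 18.2 and 10.1. Of the 14 genes 2 were lower (*Ttr* and *Clic6*), against 1.66% of all clusters, and 5 lay above the array median. In the same KO milk arrays the median deviation of the 10 myelin genes was -1.25, -0.54 and -0.86. The 12 genes of the thalamus, *Calb2* the brightest, had a summed log2 signal of 13.5, 15.0 and 14.0 with WT milk and 13.7 to 13.8 with KO milk. This sum leans on the brightest genes. The median deviation of the 12 genes was -0.12, 0.18 and 0.01 in the WT milk arrays. It was -0.20, -0.16 and -0.35 in the KO milk arrays, each below every WT milk array. Of the 12 genes, *Slc17a6*, *Rora* and *Rgs16* were lower, against 1.66% of all clusters, and 9 did not pass. In 3 of the 12, *Slc17a6*, *Rora* and *Zic1*, every KO milk array lay below every WT milk array, against 4.17% of all clusters. *Zic1* was at -1.07 and did not pass (unadjusted p = 0.059 from limma). The summed thalamus signal was highest in WT milk replicate 2, and the median difference of the 10 myelin genes was -0.76 without that array and -0.82 with it. The part of either tissue in the myelin result was not tested.

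Schwann cells, which make the myelin of peripheral nerve, also express *Mbp*, *Mag*, *Mal* and *Pllp*. Of 6 measured Schwann cell genes 0 passed, their median log2 difference was 0.11, and 1 (*Egr2*, which neurons also express) lay above the array median. *Ncmap*, the one of the 6 without overlap, was at 5.25 to 5.53 with WT milk and 5.59 to 6.09 with KO milk. Of all clusters 4.26% lay higher without overlap. The part of peripheral myelin in the result was not tested. Vascular cell genes (endothelial and mural, *Rgs5* the brightest) had a median of 0.0062, and those of neurons (*Syt1* the brightest), astrocytes (*Slc1a2*) and microglia (*P2ry12*) lay at -0.03, -0.04 and -0.02, with 0 genes passing in each. Of 10 vascular and 10 astrocyte genes, 1 each lay lower with KO milk without overlap, against 4.17% of all clusters. Among neuron and microglia genes 0 did.

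**Figure D4:**
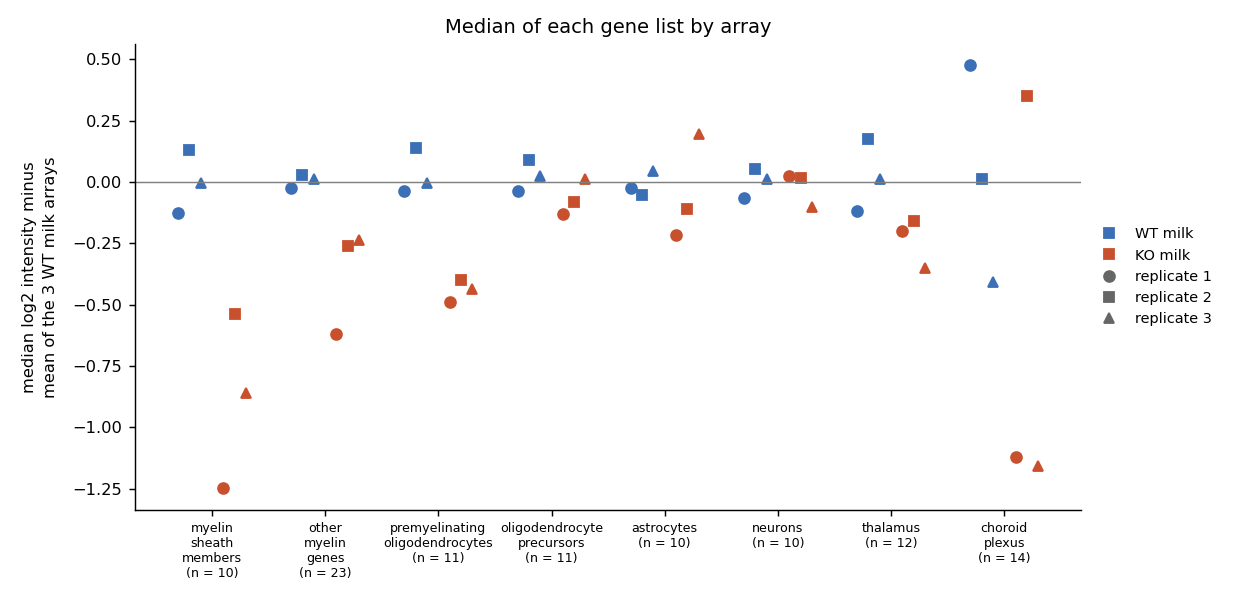
Median log2 intensity of each gene list minus the mean of the 3 WT milk arrays, by array, WT milk in blue and KO milk in red. The 10 myelin sheath genes separate the groups, from -0.54 to -1.25 in the KO milk arrays. Other myelin genes (-0.24 to -0.62), premyelinating oligodendrocytes (-0.40 to -0.49) and thalamus (-0.16 to -0.35) also separate them. Choroid plexus genes split the KO milk arrays, at -1.12, 0.35 and -1.16.

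Of 26 other genes of myelin and myelinating cells 23 were measured, and 9 were lower with KO milk (against 1.66% of all clusters), 0 were higher and 14 did not pass. Their median log2 difference was -0.39, and 9 of the 23 had KO milk arrays that all lay below the WT milk arrays (against 4.17% of all clusters). In 2 of the 23 all KO milk arrays lay above the WT milk arrays (against 4.26% of all clusters). These were *Cntn2*, an adhesion protein that neurons also express, and *Hapln2*, a link protein of the nodal matrix. *Cntn2* was at 0.28 (unadjusted p = 0.168 from limma) and *Hapln2* at 0.26 (unadjusted p = 0.154 from limma), and neither passed. The intensity of *Hapln2* was 3.35 to 3.54 with WT milk and 3.58 to 3.72 with KO milk. That is near the 3.26 to 3.56 of the Y chromosome genes at the floor. *Gjc3*, a connexin of myelinating glia, *Tmem88b*, *Ugt8a*, which makes galactocerebroside, and *Fa2h*, which hydroxylates myelin fatty acids, had the smallest p, with log2 differences of -1.24, -1.02, -1.18 and -0.77. *Qdpr* and *Ppp1r14a* had the largest p, with differences of -0.02 and 0.03. The split among KO milk arrays seen in the structural genes was present in this list too. In *Gjc3* and *Ugt8a* KO milk replicate 3 was the lowest array, at 11.36 and 10.35, and in *Fa2h* it was the highest KO milk array, at 9.32. Of 11 genes of premyelinating oligodendrocytes 6 were lower (against 1.66% of all clusters), with a median of -0.50 over the 11. They were *Tcf7l2* (-0.98), *Enpp6* (-0.93), *Bmp4* (-0.70), *Sirt2* (-0.63), *Bcas1* (-0.53) and *Gpr17* (-0.50), of which *Sirt2* was the brightest of the list. *Tcf7l2* was at 12.10, 12.88 and 11.39 in the WT milk group and 11.01, 11.11 and 11.32 in the KO milk group. It was highest in WT milk replicate 2, as was the summed thalamus signal, and the part of thalamus tissue in its difference was not tested. Of 11 measured genes of oligodendrocyte precursors, *Ptprz1* the brightest, 0 passed, 8 were below 0, and their median was -0.11. *Pdgfra*, the progenitor marker of the study, was not among the 11. The list is not confined to precursors, as it holds *Olig1*, *Olig2* and *Sox10* of the whole lineage. *Olig2* was at -0.46 (unadjusted p = 0.058 from limma) and *Sox10* at -0.49 (unadjusted p = 0.069 from limma). The difference between these lists was not tested.

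Among 19495 genes outside the 10, those with the profile nearest to their mean profile were *Mog*, *Mlf1*, *Rassf9*, *Aspm*, *Bmp4* and *Zic5*. Nearness was the root mean square distance over the 6 arrays after each gene was centred on its own mean, and it was 0.116 for *Mog*, a glycoprotein of the outer myelin surface, and 0.148 to 0.183 for the others, among which *Bmp4* is a secreted growth factor and *Aspm* a protein of the mitotic spindle. A gene with the same level in every array would lie at 0.48, and the 10 genes themselves lay at 0.06 (*Mbp*) to 0.39 (*Mag*). Each of the 10 is part of the mean profile, which draws it nearer, and 1406 of the 19495 other genes lay nearer than *Mag*. *Mog* had log2 intensities of 7.33, 7.72 and 7.35 in the WT milk group and 6.34, 7.23 and 6.66 in the KO milk group, the order of KO milk arrays seen in *Mbp* and *Mobp*. These 6 genes were picked for their likeness, so their values are a description.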

How the data were processed

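Per the labels, the authors made the deposited log2 values from biotin-labelled cDNA on Clariom S mouse arrays using RMA (background correction, normalization between arrays and probe summary) in Transcriptome Analysis Console. The background step, genome build and annotation version are not given in the sources used here. The values were used without further scaling or filter. Groups came from the labelled genotype of the mother. Symbols came from the platform annotation (19572 of 22206 clusters), and 55 symbols on several clusters were represented by the brightest.

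The difference between the milk groups was estimated for each cluster by lmFit and eBayes (R 4.3.3, limma 3.58.1), with Benjamini-Hochberg adjustment over all 22206 clusters. The fit was tested on simulated data. Promoter windows of 250 bases, 1 per gene, came from RefSeq (GRCm38.p6). The 10 genes and all lists were chosen with earlier results of these data known. Named were all 10 genes, the 4 smallest and 2 largest p of the other myelin genes, the 6 nearest profiles, the Y chromosome genes, and the brightest and passing genes of marker lists described beside a result. *Cntn2*, *Hapln2*, *Ncmap*, *Zic1*, *Olig2* and *Sox10* were named after their values were seen. Array order in *Gjc3*, *Ugt8a*, *Fa2h* and *Tcf7l2* was likewise described afterwards. Alternatives were 3 normalizations, a filter at the median intensity, a robust variance trend, array weights, an unmoderated test, a replicate block, Y signal as a covariate and each array left out. The number of arrays limits the precision.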

Additional observations from a re-analysis of the deposited data

How the results depend on the processing

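Over 15 alternatives, all 150 values of the 10 genes stayed below 0, and 145 stayed on the same side of an unadjusted p of 0.05. The filter, the robust variance trend, the unmoderated test and the replicate block leave each difference unchanged, so those signs were fixed. So were the signs of genes without overlap when an array was left out, with array weights and with Y signal as a covariate. *Mal* and *Ermn* did not pass the unmoderated test (unadjusted p = 0.0721 and 0.0668), which left 6 of 10 lower. *Mag* and *Pllp* passed with array weights (10 of 10 lower), where KO milk replicate 3 had the lowest weight, 0.384, and *Mag* also without KO milk replicate 3. With each array left out, 8 to 9 of the 10 were lower and their median ran from -0.99 to -0.63. Quantile normalization again, cyclic loess and a common median gave -0.80, -0.79 and -0.81. Deviations of same-numbered arrays correlated at 0.02, -0.13 and 0.02 over clusters, which showed no pairing by replicate number. Deviations from group means of so few arrays cannot show that pairing was absent. With a replicate block 8 of 10 were lower. Clusters called at an adjusted p of 0.05 from limma numbered 0 to 1 with each array left out, the 1 being *Ttr* when KO milk replicate 2 was left out. At an unadjusted p under 0.05, leaving that array out gave 804 lower and 572 higher clusters, against 369 and 357 with all arrays, and 576 and 589 with array weights. With Y signal as a covariate 287 were lower and 219 higher, and with the filter 190 and 79 of 11103 tested.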
